A study of Mus musculus with 21 samples.

Results

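Mammalian cells leave G1 when D-type cyclins bind the kinases Cdk4 and Cdk6 and phosphorylate the RB proteins, which frees E2F transcription factors to switch on the genes of S phase. The INK4 proteins block Cdk4 and Cdk6, and the Cip/Kip proteins bind cyclin and kinase complexes more broadly. The Cdkn2a locus also encodes p19Arf, which holds back Mdm2, the ubiquitin ligase that degrades p53, and p53 in turn drives transcription of Cdkn1a and Mdm2. In fibroblasts kept in culture the Ink4 and Arf genes rise with passage and limit reprogramming, while hepatocytes of the resting liver express little Cdkn2a.

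The genes described here were chosen by name and number 10 of the 54532 in the deposited count tables. They are the INK4 inhibitors Cdkn2a, Cdkn2b, Cdkn2c and Cdkn2d, the Cip/Kip inhibitors Cdkn1a and Cdkn1b, the cyclins Ccnd1, Ccnd2 and Ccnd3, and Mdm2. All 10 passed the filter on low counts in every comparison. The study used bulk poly-A RNA-seq of mouse cells to follow fibroblasts turned into hepatocyte-like cells with small molecules and growth factors. It holds 21 libraries in 7 groups, all of wild-type cells.

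The NSF-CiHeps group (3 libraries) started from neonatal skin fibroblasts. They first received 50 ng/ml bFGF with 20 µM CHIR99021 (an inhibitor of GSK3), 10 µM 616452 (an inhibitor of the TGF-beta receptor), 50 µM Forskolin (which raises cAMP), 1 µM CH55 (an agonist of retinoic acid receptors), 0.05 µM UNC0638 (which blocks the histone methyltransferases G9a and GLP) and 5 µM EPZ004777 (an inhibitor of DOT1L). After 4 days they moved to a hepatocyte medium with 1 µM dexamethasone, growth factors, CHIR99021, 616452 and Forskolin, and with 50 µg/ml vitamin C. The C6F5UE-C6F(L)V group (3 libraries) had the same protocol but started from mouse embryonic fibroblasts. The C6FAE-C6F(L) group (4 libraries) was embryonic fibroblasts given C6FAE for 4 days and then C6F(L). C6FAE (3 libraries) is the first cocktail alone, with 0.05 µM AM580, another retinoic acid receptor agonist, in place of CH55 and UNC0638. C6F(L) (3 libraries) is the hepatocyte medium without a first cocktail. In it CHIR99021, 616452 and Forskolin started at 20, 10 and 50 µM, their doses in C6FAE, and were lowered after 4 days to 3, 2 and 2 µM. The groups given a first cocktail and then this medium had the same doses in it. The pHeps group (2 libraries) was hepatocytes taken from liver and cultured for 2 days, and MEF (3 libraries) was untreated embryonic fibroblasts. The labels do not date the collection of the induced cells or say whether replicates were separate cultures, so the p-values measure the spread between these libraries.

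Libraries held 9180939 to 12319883 gene counts, and levels are given as CPM, the count scaled to library depth, after TMM scaling. Summed over 10 hepatocyte markers, the level was 347 to 2574 CPM in NSF-CiHeps, 21750 to 28700 CPM in C6F5UE-C6F(L)V, 491 to 1676 CPM in C6FAE-C6F(L) and 25550 to 26920 CPM in pHeps, and no other group passed 43.5 CPM. Every NSF-CiHeps and C6FAE-C6F(L) library thus lay below every pHeps library, and 7 of the 10 markers were at 0 in MEF. Within NSF-CiHeps, replicate 3 alone had the 347 CPM, against 2528 CPM in replicate 1 and 2574 CPM in replicate 2. The level of 9 fibroblast markers was 8.46 to 33.2 CPM in NSF-CiHeps, 59.4 to 65.3 CPM in C6F5UE-C6F(L)V, 312 to 3709 CPM in C6FAE-C6F(L), 10130 to 10620 CPM in C6FAE, 26330 to 29770 CPM in C6F(L), 7.52 to 8.67 CPM in pHeps and 36820 to 37460 CPM in MEF. Keratinocyte markers (7 genes) reached 9334 to 17420 CPM in C6FAE-C6F(L) and at most 190.5 CPM elsewhere, and macrophage markers (8 genes) were at 566 to 723 CPM in pHeps, 1606 to 2033 CPM in MEF and at most 120.4 CPM elsewhere. Endothelial (5 genes) and stellate cell (6 genes) marker sums were highest in C6FAE, at up to 73.8 CPM and 248 CPM, and erythroid markers stayed at or under 33.3 CPM. The endothelial sum in C6FAE was mostly Kdr (mean 44.0 CPM) and Cdh5 (22.8 CPM), while Pecam1 and Tie1 were highest in pHeps and Emcn in MEF. Of the stellate cell markers, 3 were called higher and 2 lower in C6FAE than in MEF. C6FAE-C6F(L) replicate 4 stood apart, with the 3709 CPM of fibroblast markers against 312 to 875 CPM in the other 3, and ribosomal protein genes at 3.93% of its counts against 8.15% to 9.93%. Calls of the 10 genes and counts of the gene lists that change without it are given with both values. The part of these marker differences in the results below was not tested, and in bulk RNA fewer cells of a type and less RNA per cell cannot be told apart.

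The term called is used for a gene where edgeR's quasi-likelihood test gave a Benjamini-Hochberg adjusted p under 0.05 over all genes and the change was at least 1 on the log2 scale, the scale of all changes below. Of the 130 pairs of gene and comparison, 49 were called. Over all genes tested, 10.6% to 26.1% were called higher and 12.4% to 27.2% lower, depending on the comparison. The 49 calls were not tested against these shares. Neither they nor the following counts per gene therefore set these genes apart from other genes. Cdkn2a and Ccnd1 were called in 9 of 13 comparisons each, Ccnd2 in 7, Cdkn2b in 6, Cdkn2c and Ccnd3 in 5 each, Cdkn1b in 3, Cdkn1a and Mdm2 in 2 each, and Cdkn2d in 1. Among groups, the highest mean was 945 times the lowest for Cdkn2a, 69.7 times for Ccnd2 and 18.5 times for Cdkn2b, and 2.15 to 6.34 times for the other 7 genes.

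**Figure D1:**
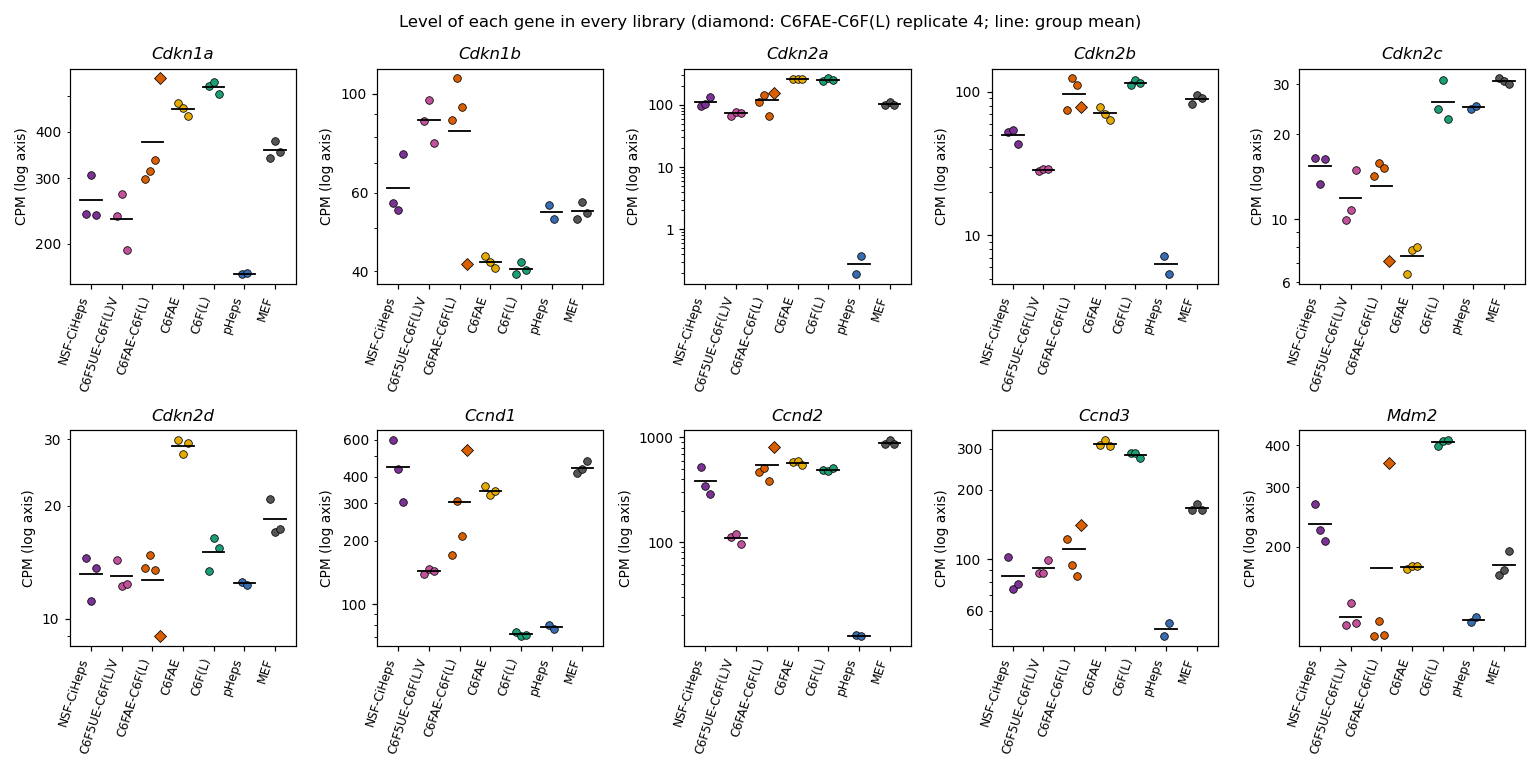
CPM (log axis) of each of the 10 genes in all 21 libraries, with a point for each library, a line at each group mean, a diamond for C6FAE-C6F(L) replicate 4 and the 7 groups along the horizontal axis. Cdkn2a lies at 0.19 and 0.365 CPM in pHeps and at 65.8 CPM or above in every other library.

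What the first cocktail did alone was asked by comparing C6FAE with MEF. Cdkn2a rose and Cdkn2c fell in C6FAE, while the D cyclins and Mdm2 were not called. That is 1 of 10 genes higher beside a background of 15.6% of all genes tested, and 1 lower beside 14.7%. The median change of the 10 genes was -0.17 on the log2 scale, against 0.02 over all genes. In C6F(L), the hepatocyte medium alone, Cdkn2a and Mdm2 rose and Ccnd1 fell relative to MEF. These are 2 higher genes beside a background of 10.6% and 1 lower beside 12.4%, with a median of 0.08 against 0.01 over all genes. In C6FAE-C6F(L), which had both steps, the single gene of the 10 called against MEF was Cdkn2c, which fell. The background was 18.2% of genes called higher and 19.3% called lower, and the medians were -0.24 for the 10 genes and 0.04 for all genes.

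Set against its own first step, C6FAE-C6F(L) had higher Cdkn1b and lower Cdkn2a, Cdkn2d and Ccnd3 than C6FAE, or 1 gene higher (background 16.1%) and 3 lower (background 17.6%). Against the second step alone, C6FAE-C6F(L) had higher Cdkn1b and Ccnd1 and lower Cdkn2a, Ccnd3 and Mdm2 than C6F(L), or 2 higher (background 15.5%) and 3 lower (background 16.5%). The interaction asks whether the 2 steps together differed from the sum of their separate log2 changes relative to MEF. It was positive for Cdkn1b, Cdkn2c and Ccnd1 and negative for Cdkn2a and Ccnd3, or 3 higher beside a background of 16.2% and 2 lower beside 16.8%. These comparisons share the MEF, C6FAE and C6F(L) libraries, so they are not independent of each other.

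Relative to pHeps, C6F5UE-C6F(L)V had higher Cdkn2a, Cdkn2b and Ccnd2 and lower Cdkn2c, which is 3 higher (background 18.4%) and 1 lower (background 14.7%). In C6FAE-C6F(L), Cdkn1a, Cdkn2a, Cdkn2b and all 3 D cyclins were higher than in pHeps, which is 6 genes beside a background of 26.1%, where 20.8% of all genes were lower. In NSF-CiHeps, Cdkn2a, Cdkn2b, Ccnd1 and Ccnd2 were higher than in pHeps, which is 4 genes beside 17.4%, where 18.1% of all genes were lower. The medians of the 10 genes were 0.79 for C6F5UE-C6F(L)V, 1.13 for C6FAE-C6F(L) and 0.79 for NSF-CiHeps, against 0.01, 0.16 and 0.00 over all genes. The same 2 pHeps libraries serve all these comparisons, and all but the first were made across deposited tables, where table and group cannot be told apart.

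C6F5UE-C6F(L)V had lower Cdkn2b, Cdkn2c, Ccnd1 and Ccnd2 than MEF, which is 4 lower beside a background of 26.4%, where 25.7% of all genes were higher. In pHeps, Cdkn1a, Cdkn2a, Cdkn2b and the 3 D cyclins were lower than in MEF, which is 6 lower beside a background of 27.2%, where 24.4% of all genes were higher. The median change of the 10 genes was -1.36 in pHeps relative to MEF, against -0.03 over all genes. C6F5UE-C6F(L)V had lower Cdkn2b, Ccnd1 and Ccnd2 than C6FAE-C6F(L), or 3 beside a background of 22.8%, where 19.7% of all genes were higher. NSF-CiHeps had higher Ccnd1 and Ccnd2 than C6F5UE-C6F(L)V, or 2 beside a background of 12.3%, where 16.2% of all genes were lower. These 4 comparisons were likewise made across deposited tables.

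**Figure D2:**
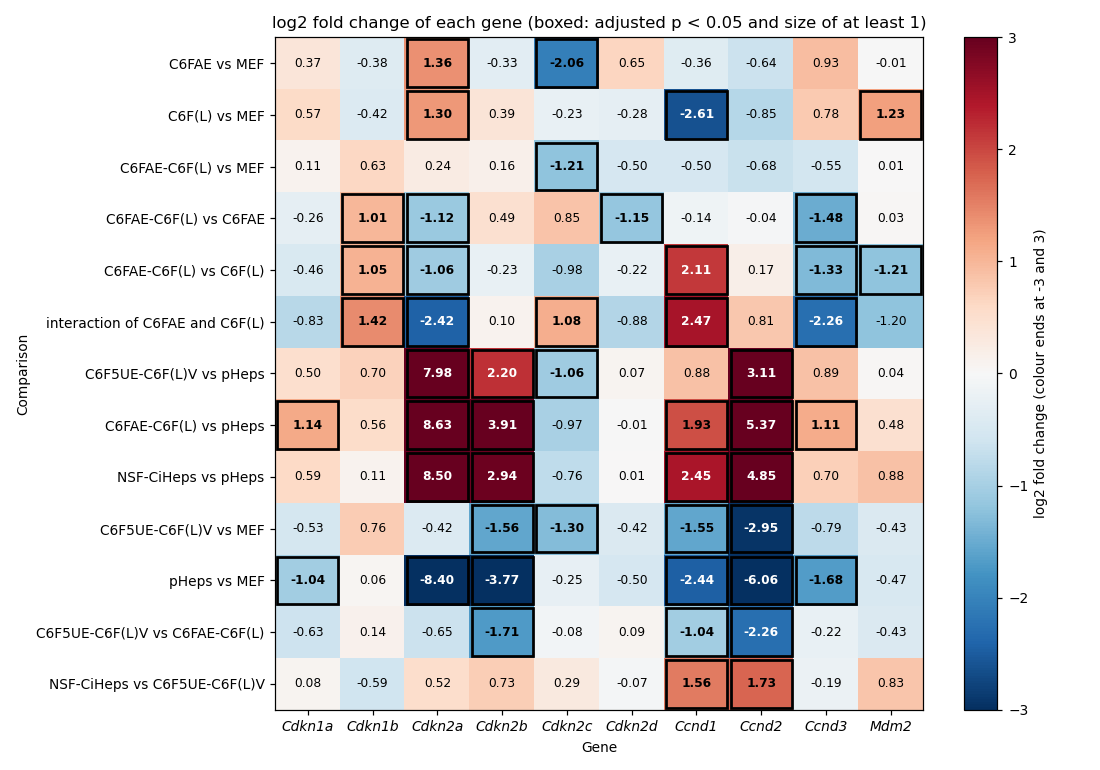
Log2 fold change of each of the 10 genes (columns) in the 13 comparisons (down the page), with the group named first over the other and called changes boxed. The colour ends at a size of 3, the printed value does not. Cdkn2a and Cdkn2b are boxed as higher in NSF-CiHeps, C6F5UE-C6F(L)V and C6FAE-C6F(L) than in pHeps.

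Cdkn2a (ENSMUSG00000044303, GRCm38 chr4:89274471-89294653, minus strand) encodes p16Ink4a and, from another first exon and reading frame, p19Arf. The count per gene merges both products, so their shares cannot be told apart here. The windows of 250 bases before their separate start sites, from RefSeq (GRCm38.p6), are shown because both products start from promoters of their own. The upstream start, that of Arf, is chr4:89294620-89294869 and the start within the gene, that of Ink4a, is chr4:89282193-89282442, both read 5′ to 3′ on the minus strand. The neighbouring gene Cdkn2b (ENSMUSG00000073802, chr4:89306299-89311039, minus strand) encodes p15Ink4b, a Cdk4 and Cdk6 inhibitor induced by TGF-beta. Its window, chr4:89311033-89311282, has a cAMP response element (CRE) word in capitals.
Cdkn2a, Arf start: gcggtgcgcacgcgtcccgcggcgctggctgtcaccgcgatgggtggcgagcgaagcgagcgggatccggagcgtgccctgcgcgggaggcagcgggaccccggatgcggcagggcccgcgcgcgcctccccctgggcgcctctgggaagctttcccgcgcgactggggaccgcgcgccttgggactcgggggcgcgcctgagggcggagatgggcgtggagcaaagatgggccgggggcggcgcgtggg
Cdkn2a, Ink4a start: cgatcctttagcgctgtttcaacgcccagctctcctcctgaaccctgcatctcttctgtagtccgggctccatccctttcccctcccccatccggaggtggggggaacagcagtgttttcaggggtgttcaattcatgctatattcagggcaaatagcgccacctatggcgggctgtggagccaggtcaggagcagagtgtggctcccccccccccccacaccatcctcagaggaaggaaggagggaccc
Cdkn2b: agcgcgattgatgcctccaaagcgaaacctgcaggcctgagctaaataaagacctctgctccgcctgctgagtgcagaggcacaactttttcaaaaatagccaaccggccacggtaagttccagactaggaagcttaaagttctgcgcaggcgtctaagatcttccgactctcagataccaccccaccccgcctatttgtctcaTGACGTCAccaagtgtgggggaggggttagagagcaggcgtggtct

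The Arf window had 40 CpG dinucleotides and 78.4% G and C, the Ink4a window 7 CpG and 60.0%, and the Cdkn2b window 12 CpG and 53.6%. Searched on both strands were the CRE (TGACGTCA, found in 1.55% of 32851 RefSeq promoter windows of this length), the TCF/LEF word (CTTTGA, 13.8%), E2F words (TTTCGCGC or TTTGGCGC, 0.654%), the TATA box (TATAAA, 12.4%) and the p53 consensus decamer (7.13%). Neither Cdkn2a window held any of them, and the Cdkn2b window held the CRE alone. RefSeq windows were matched for 8 of the 10 genes, 12 windows in all, and Ccnd1 and Ccnd2 had no entry. None of the 12 held the TCF/LEF, E2F or TATA words, which says only that these letters are not in these windows.

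Cdkn2a levels fell into 3 tiers. It was at 264, 265 and 259 CPM in C6FAE and at 239, 267 and 247 CPM in C6F(L), against 98.6, 110 and 98.8 CPM in MEF. C6FAE-C6F(L) had 110, 142, 65.8 and 155 CPM, NSF-CiHeps 95.6, 104 and 132 CPM and C6F5UE-C6F(L)V 67.0, 76.0 and 75.0 CPM. The pHeps libraries had 0.19 and 0.365 CPM, from 2 and 4 counts. Every C6FAE and C6F(L) library thus lay above every other library, and the ranges of C6FAE-C6F(L), NSF-CiHeps and MEF overlapped.

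Cdkn2a was higher than in MEF after either step alone, by 1.36 (SE 0.24, adjusted p = 0.000434) in C6FAE and by 1.30 (SE 0.24, adjusted p = 0.000868) in C6F(L) on the log2 scale. Both steps in sequence left it 1.12 below C6FAE (log2 change -1.12, SE 0.21, adjusted p = 0.00075) and 1.06 below C6F(L) (log2 change -1.06, SE 0.21, adjusted p = 0.00116). Its interaction was -2.42 (SE 0.32, adjusted p = 6.4e-05). Without C6FAE-C6F(L) replicate 3, the lowest of its group, the changes from C6FAE and C6F(L) were -0.93 and -0.88, short of the fold threshold. The labels give no days in culture for MEF, C6FAE or C6F(L), so time in culture and treatment cannot be told apart here.

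Of the 10 genes, Cdkn2a had the largest change from pHeps in each of NSF-CiHeps, C6F5UE-C6F(L)V and C6FAE-C6F(L). Its share of counts was 408 times that of pHeps in NSF-CiHeps (exact 95% interval 187 to 1111), 287 times in C6F5UE-C6F(L)V (132 to 782) and 423 times in C6FAE-C6F(L) (194 to 1153). In MEF the share was 352 times that of pHeps (161 to 959). These intervals cover counting error only and rest on 6 counts in pHeps. The hepatocyte marker sum of C6F5UE-C6F(L)V overlapped with that of pHeps, though 3 of the 10 markers were called higher and 3 lower than in pHeps. Cdkn2a in C6F5UE-C6F(L)V was not called against MEF (log2 change -0.42, SE 0.21, adjusted p = 0.0873), but every library of C6F5UE-C6F(L)V lay below every MEF library.

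Cdkn2b did not follow its neighbour across the 2 steps. It was at 78.4, 70.2 and 63.7 CPM in C6FAE and 112, 121 and 115 CPM in C6F(L), against 82.4, 94.5 and 90.1 CPM in MEF, with neither group called. C6FAE-C6F(L) had 74.6, 124, 112 and 78.6 CPM, a range that spans that of MEF. NSF-CiHeps had 52.4, 54.7 and 43.7 CPM, C6F5UE-C6F(L)V 28.2, 28.8 and 28.8 CPM, and pHeps 7.14 and 5.38 CPM. The last 3 groups did not overlap with each other or with any other group. Cdkn2b in C6F5UE-C6F(L)V fell by 1.56 relative to MEF (SE 0.16, adjusted p = 1.46e-07) and by 1.71 relative to C6FAE-C6F(L) (SE 0.16, adjusted p = 4.87e-08). It was still higher than in pHeps, by 2.20 (SE 0.20, adjusted p = 1.1e-06), as it was in NSF-CiHeps, by 2.94 (SE 0.21, adjusted p = 5.16e-09). The interaction of Cdkn2b was 0.10 and not called.

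Cdkn2c (ENSMUSG00000028551, chr4:109660876-109667189, minus strand) encodes p18Ink4c, an INK4 protein induced in several cell types as they differentiate. It was at 6.41, 7.81 and 7.98 CPM in C6FAE, against 31.5, 30.9 and 30.1 CPM in MEF. C6FAE-C6F(L) had 14.2, 15.8, 15.2 and 7.13 CPM, and C6F(L) 24.6, 31 and 22.7 CPM. NSF-CiHeps had 16.5, 13.4 and 16.3 CPM, C6F5UE-C6F(L)V 9.93, 10.8 and 15.0 CPM, and pHeps 24.7 and 25.2 CPM. The 4 groups that had received a first cocktail thus lay below C6F(L), pHeps and MEF in every library. Relative to MEF, Cdkn2c fell by 2.06 in C6FAE (SE 0.25, adjusted p = 2.96e-05), by 1.21 in C6FAE-C6F(L) (SE 0.22, adjusted p = 0.000486) and by 1.30 in C6F5UE-C6F(L)V (SE 0.23, adjusted p = 6.44e-05). Relative to pHeps it fell by 1.06 in C6F5UE-C6F(L)V (SE 0.21, adjusted p = 0.000837), which missed the fold threshold without C6F5UE-C6F(L)V replicate 1 (log2 change -0.94) or replicate 2. The interaction was 1.08 (SE 0.33, adjusted p = 0.0175), and it was 0.96 to 0.99 and not called without C6FAE-C6F(L) replicate 2 or 3, C6FAE replicate 1 or C6F(L) replicate 3. Without C6FAE-C6F(L) replicate 4, whose 7.13 CPM was the lowest of its group, Cdkn2c was also called higher in C6FAE-C6F(L) than in C6FAE, by 1.06 (adjusted p = 2.55e-05), against 0.85 with it.

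Cdkn2d (ENSMUSG00000096472, chr9:21288410-21291407, minus strand) encodes p19Ink4d, an INK4 protein separate from p19Arf. It was highest in C6FAE, at 29.8, 27.4 and 29.4 CPM, against 20.8, 17.1 and 17.3 CPM in MEF. In the 5 other groups it lay between 9.02 and 16.4 CPM. It fell by 1.15 in C6FAE-C6F(L) relative to C6FAE (SE 0.16, adjusted p = 5.43e-05), the single comparison in which it was called.

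Because the 4 genes differ in length, their makeup is given as CPM per kb of gene length. Cdkn2a held 75.7% of the summed INK4 level in C6FAE, 67.6% in C6F(L), 64.9% in NSF-CiHeps, 65.0% in C6F5UE-C6F(L)V, 54.0% in C6FAE-C6F(L) and 50.1% in MEF. Cdkn2b held most of the remainder in those groups, from 17.2% in C6FAE to 38.7% in C6FAE-C6F(L). In pHeps the sum was 21.9 CPM per kb, against 317 CPM per kb in C6F(L), the highest group, and 175 CPM per kb in MEF. Cdkn2c and Cdkn2d made up 42.4% and 36.1% of the pHeps sum, with Cdkn2a at 1.09%. In no other group did Cdkn2c pass 6.59% or Cdkn2d 8.69%.

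**Figure D3:**
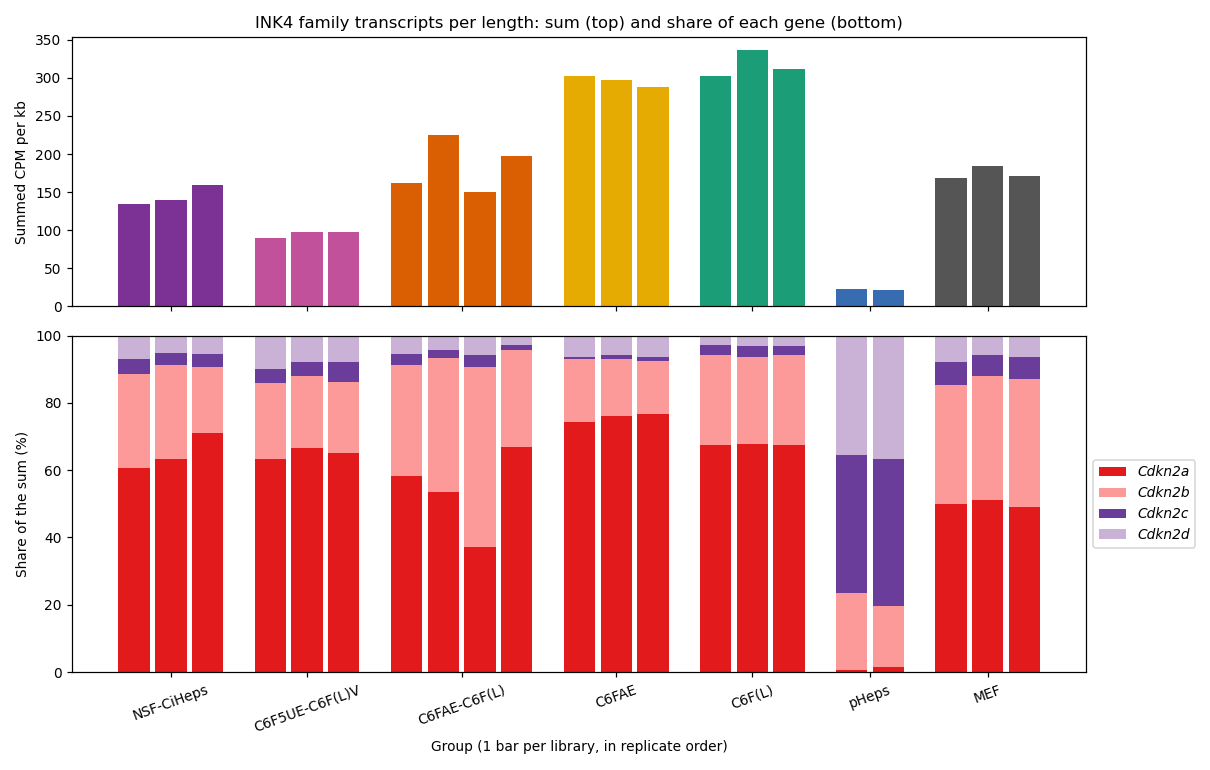
INK4 genes in CPM per kb of gene length, with a bar for each library in the 7 groups. The upper panel gives the sum of the 4 genes, 21.9 CPM per kb on average in pHeps and 317 in C6F(L), and the lower panel each gene's share of it in percent, in which Cdkn2c and Cdkn2d lead in pHeps and Cdkn2a and Cdkn2b elsewhere.

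Among 17 regulators of the Ink4 and Arf locus, 4 rose and 3 fell in C6FAE relative to MEF, where 15.6% of all genes were called higher and 14.7% lower, and the median was 0.44 against 0.02 over all genes. Those with the largest changes were Tbx3 (4.21, at 284 CPM in C6FAE against 15.4 CPM in MEF) and Tbx2 (3.10), T-box repressors of Arf, then Id1 (2.62), an inhibitor of E proteins, and the bHLH factor Twist1 (2.41). In C6F(L), 3 of the 17 rose over MEF (10.6% of all genes), namely Twist1 (2.03), Ets2 (1.53), an Ets factor, and Id1 (1.03). C6FAE-C6F(L) had 2 higher and 3 lower than C6FAE (16.1% and 17.6% of all genes), led by Tbx2 (-4.17), Twist1 (-3.87), Tbx3 (-3.06) and the Polycomb gene Cbx7 (2.01). Relative to pHeps, 7 were higher and 2 lower in C6F5UE-C6F(L)V (18.4% and 14.7% of all genes), led by Tbx2 (2.72), Tbx3 (2.60), Cbx7 (2.37) and Twist1 (-2.13).

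Cdkn1a (ENSMUSG00000023067, chr17:29090976-29100727, plus strand) encodes p21, the Cip/Kip inhibitor that p53 induces, and Mdm2 (ENSMUSG00000020184, chr10:117688875-117710758, minus strand) is the other p53 target among the 10. Their RefSeq windows (GRCm38.p6) are shown with matches to the p53 decamer in capitals. For Cdkn1a this is the upstream start, chr17:29090729-29090978 on the plus strand, and for Mdm2 it is chr10:117710759-117711008 on the minus strand.
Cdkn1a: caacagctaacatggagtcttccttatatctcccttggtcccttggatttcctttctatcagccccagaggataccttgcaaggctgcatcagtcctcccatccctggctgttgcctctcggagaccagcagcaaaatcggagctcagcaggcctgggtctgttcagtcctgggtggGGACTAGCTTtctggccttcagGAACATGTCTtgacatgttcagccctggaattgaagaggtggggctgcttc
Mdm2: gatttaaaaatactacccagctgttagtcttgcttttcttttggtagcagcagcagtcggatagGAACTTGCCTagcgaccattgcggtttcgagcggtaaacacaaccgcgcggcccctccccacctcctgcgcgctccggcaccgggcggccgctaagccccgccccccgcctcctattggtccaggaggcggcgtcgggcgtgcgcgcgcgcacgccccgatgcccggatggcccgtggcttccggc

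The Cdkn1a window held 2 matches and the Mdm2 window 1, and Cdkn2d also held 1. The window before the other Cdkn1a start, chr17:29093519-29093768, held none of the words searched. The p53 sites known to act on Mdm2 lie in its first intron, outside the window.

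Mdm2 was highest in C6F(L), at 398, 412 and 414 CPM, against 164, 170 and 193 CPM in MEF. NSF-CiHeps had 268, 224 and 208 CPM and C6FAE 172, 175 and 175 CPM. C6F5UE-C6F(L)V had 117, 136 and 119 CPM and pHeps 119 and 123 CPM, ranges that overlapped. In C6FAE-C6F(L), 3 libraries had 109, 120 and 109 CPM and replicate 4 had 354 CPM, so that the mean of 173 ± 121 CPM (SD, n = 4) describes none of them.

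Mdm2 rose by 1.23 in C6F(L) over MEF (SE 0.38, adjusted p = 0.021) and was 1.21 lower in C6FAE-C6F(L) than in C6F(L) (log2 change -1.21, SE 0.35, adjusted p = 0.0108), which was -1.84 (adjusted p = 1.27e-09) without replicate 4. The call in C6F(L) was lost without MEF replicate 1 or 2, with an adjusted p of up to 0.0659. Without C6FAE-C6F(L) replicate 4 the rise in C6F(L) over MEF was again 1.23, with an adjusted p of 4.34e-08. The interaction was -1.20 (SE 0.51, adjusted p = 0.0733) and not called with the same library, and -1.83 (adjusted p = 2e-08) without it. With a replicate block the interaction was also called, but there replicate 4 has a term of its own and is in effect left out. The interaction was called as well in the fit of all 21 libraries, which keeps replicate 4. Without replicate 4, C6FAE-C6F(L) was also below MEF (log2 change -0.62, adjusted p = 7.07e-06) and below C6FAE (-0.60, adjusted p = 1.13e-05), both short of the fold threshold.

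Cdkn1a was also highest in C6F(L). It was at 532, 544 and 506 CPM in C6F(L) and 479, 463 and 442 CPM in C6FAE, against 341, 379 and 354 CPM in MEF. C6FAE-C6F(L) had 298, 314 and 337 CPM in 3 libraries and 557 CPM in replicate 4. NSF-CiHeps had 241, 306 and 240 CPM, C6F5UE-C6F(L)V 237, 272 and 192 CPM and pHeps 166 and 167 CPM. Every library of C6F(L) and C6FAE was above every MEF library, but the changes, 0.57 in C6F(L) (SE 0.20, adjusted p = 0.0345) and 0.37 in C6FAE (SE 0.20, adjusted p = 0.133), were not called.

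Cdkn1a in pHeps fell by 1.04 relative to MEF (SE 0.22, adjusted p = 0.000464). It was 1.14 higher in C6FAE-C6F(L) than in pHeps (SE 0.21, adjusted p = 0.000159), but without replicate 4 it was 0.88 and under the fold threshold. The interaction of Cdkn1a was -0.83 (adjusted p = 0.023) with replicate 4 and -1.09 (adjusted p = 1.26e-06) without it.

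Of 23 other genes of the p53 axis, 6 rose in C6F(L) relative to MEF, or 7 without C6FAE-C6F(L) replicate 4 in the fit, where 10.6% of all genes were called higher. The median was 0.80 against 0.01 over all genes. Pidd1 (2.44) and Trp53inp1 (1.86), both p53 targets, Gtse1 (1.41), which encodes a p53-binding protein, and the antiproliferative gene Btg2 (1.27) had the largest changes. In C6FAE, 3 rose and 4 fell relative to MEF, close to the 15.6% and 14.7% of all genes, with Pmaip1 (2.65), which encodes the apoptosis protein Noxa, and Pidd1 (1.70) higher and Sesn1 (-1.92), a stress-response gene, and Fas (-1.59), a death receptor, lower. Trp53 itself was not called in C6F(L) (log2 change -0.40, adjusted p = 0.0594) or in C6FAE (-0.20, adjusted p = 0.304). C6FAE-C6F(L) had 3 higher and 5 lower than C6F(L) (15.5% and 16.5% of all genes), and without replicate 4 it had 2 higher and 8 lower. Perp (5.06), Pmaip1 (3.03), Btg2 (-1.76) and the receptor gene Eda2r (-1.59) led. Perp encodes a desmosome protein of stratified epithelia, and the keratinocyte marker sum was 9334 to 17420 CPM in C6FAE-C6F(L), against 14.8 to 190.5 CPM in C6F(L). Against MEF, 4 of the 23 were higher in C6FAE-C6F(L) (18.2% of all genes), led by Perp (5.25) and Pmaip1 (3.76), and without replicate 4 there were 3 lower beside 4 higher. Relative to pHeps, 8 were higher and 2 lower in NSF-CiHeps (17.4% and 18.1% of all genes), led by Pmaip1 (4.35), Phlda3 (2.28), Ccng1 (2.26) and Eda2r (1.87).

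Cdkn1b (ENSMUSG00000003031, chr6:134920401-134925513, plus strand) encodes p27, a Cip/Kip inhibitor controlled largely through the stability of its protein. It was at 87.2, 108 and 93.3 CPM in C6FAE-C6F(L) replicates 1 to 3 and at 41.5 CPM in replicate 4. C6FAE had 43.2, 41.8 and 40.7 CPM and C6F(L) 39.4, 41.9 and 40.1 CPM, against 52.4, 57.2 and 53.9 CPM in MEF. C6F5UE-C6F(L)V had 87.1, 97.0 and 77.5 CPM, NSF-CiHeps 56.8, 54.8 and 73.2 CPM and pHeps 56.3 and 52.3 CPM. After either step alone every library thus lay below MEF, and after the sequence all libraries but replicate 4 lay above it. Cdkn1b was higher in C6FAE-C6F(L) than in C6FAE by 1.01 (SE 0.23, adjusted p = 0.00271) and than in C6F(L) by 1.05 (SE 0.23, adjusted p = 0.00229), both close to the fold threshold. Against C6FAE the call was lost on the fold threshold in 8 of 14 alternative settings. Leaving out C6FAE-C6F(L) replicate 1, 2 or 3 or C6FAE replicate 2 or 3 lost it (0.83 to 1.00). So did scaling by library size only, no filter and the fit of all 21 libraries. Against C6F(L) the call was lost without C6FAE-C6F(L) replicate 2 or 3 (0.87 and 0.97). The interaction was 1.42 (SE 0.34, adjusted p = 0.00415). In C6F5UE-C6F(L)V it was higher than in MEF by 0.76 and than in pHeps by 0.70, with adjusted p of 0.00481 and 0.000222 but under the fold threshold.

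Among 8 other genes of Cip/Kip and CDK-binding regulators, Cdkn1c, which encodes the imprinted inhibitor p57, was called after either step. It rose by 2.08 in C6F(L), at 396 CPM against 94.6 CPM in MEF, and by 1.04 in C6FAE. It fell by 1.69 in C6FAE-C6F(L) relative to C6F(L). In pHeps, whose libraries held 4 and 9 counts of it, Cdkn1c fell by 7.20 relative to MEF, a size that rests on these few counts. In C6F5UE-C6F(L)V it fell by 3.99 relative to MEF. Both comparisons were made across deposited tables. C6FAE had 2 of the 8 higher and 1 lower than MEF (15.6% and 14.7% of all genes), the others being Skp2 (1.43), the ubiquitin ligase subunit that targets p27, and Fbxo4 (-1.48), a ligase subunit that targets cyclin D1.

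Ccnd1 (ENSMUSG00000070348, chr7:144929931-144939925, minus strand) encodes cyclin D1, which mitogens and Wnt signalling induce. It was at 73.7, 70.8 and 71.2 CPM in C6F(L), against 418, 435 and 474 CPM in MEF. C6FAE had 362, 329 and 344 CPM, and C6FAE-C6F(L) 170, 307, 210 and 536 CPM. NSF-CiHeps had 597, 438 and 304 CPM, C6F5UE-C6F(L)V 139, 147 and 144 CPM and pHeps 79.6 and 76.6 CPM. C6F(L) was the lowest group, just below pHeps and without overlap, and NSF-CiHeps and MEF were the highest with overlapping ranges.

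Ccnd1 in C6F(L) fell by 2.61 relative to MEF (SE 0.34, adjusted p = 7.81e-05). The same medium after the first cocktail gave a level 2.11 higher than C6F(L) (SE 0.32, adjusted p = 0.000139), and the interaction was 2.47 (SE 0.44, adjusted p = 0.000651). Without C6FAE-C6F(L) replicate 4 these were 1.68 (adjusted p = 1.65e-06) and 2.04 (adjusted p = 7.38e-06). Relative to MEF, Ccnd1 fell by 1.55 in C6F5UE-C6F(L)V (SE 0.30, adjusted p = 0.000185). Between protocols it was lower in C6F5UE-C6F(L)V than in C6FAE-C6F(L) (log2 change -1.04, SE 0.28, adjusted p = 0.00389), which was -0.61 and not called without replicate 4. With the protocol of C6F5UE-C6F(L)V applied to skin fibroblasts, NSF-CiHeps were higher by 1.56 (SE 0.30, adjusted p = 0.000366). Ccnd1 overlaps Oraov1 on the opposite strand, which had at most 577 counts in a library, and the strand setting of the counting is not given in the sources used here.

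Ccnd2 (ENSMUSG00000000184, chr6:127125162-127152193, minus strand) encodes cyclin D2. Its level was lowest in pHeps and highest in MEF. It was at 12.9 and 12.7 CPM in pHeps, against 862, 940 and 870 CPM in MEF. C6F5UE-C6F(L)V had 112, 120 and 95.5 CPM and NSF-CiHeps 525, 342 and 291 CPM. C6FAE-C6F(L) had 465, 512, 379 and 816 CPM, C6FAE 581, 589 and 545 CPM and C6F(L) 487, 474 and 511 CPM. All induced libraries lay between those of pHeps and MEF, and the range of C6FAE-C6F(L) overlapped with those of NSF-CiHeps, C6FAE and C6F(L).

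Ccnd2 in pHeps fell by 6.06 relative to MEF (SE 0.34, adjusted p = 1.23e-10). In C6F5UE-C6F(L)V it fell by 2.95 relative to MEF (SE 0.24, adjusted p = 7.4e-09) and was higher than in pHeps by 3.11 (SE 0.14, adjusted p = 1.27e-09). Its excess over pHeps was 4.85 in NSF-CiHeps (SE 0.32, adjusted p = 2.2e-09) and 5.37 in C6FAE-C6F(L) (SE 0.33, adjusted p = 3.66e-10). NSF-CiHeps exceeded C6F5UE-C6F(L)V by 1.73 (SE 0.23, adjusted p = 8.78e-06). Neither step alone moved Ccnd2 past the fold threshold from MEF, with changes of -0.64 in C6FAE and -0.85 in C6F(L).

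Ccnd3 (ENSMUSG00000034165, chr17:47505051-47599691, plus strand) encodes cyclin D3. Like Cdkn2a, it was highest in C6FAE and C6F(L). C6FAE had 311, 327 and 308 CPM and C6F(L) 287, 287 and 274 CPM, against 163, 173 and 163 CPM in MEF. C6FAE-C6F(L) had 123, 94, 84.9 and 140 CPM, below MEF in every library. The other groups were lower still or overlapped with it, at 103, 74.0 and 78.2 CPM in NSF-CiHeps, 87.1, 87.3 and 99.5 CPM in C6F5UE-C6F(L)V and 46.7 and 52.8 CPM in pHeps.

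Relative to C6FAE, Ccnd3 in C6FAE-C6F(L) fell by 1.48 (SE 0.15, adjusted p = 4.23e-06), and relative to C6F(L) by 1.33 (SE 0.15, adjusted p = 1.22e-05). The interaction was -2.26 (SE 0.22, adjusted p = 5.06e-06). The separate differences from MEF were 0.93 in C6FAE (adjusted p = 0.000388) and 0.78 in C6F(L) (adjusted p = 0.0019), under the fold threshold. In C6FAE-C6F(L) relative to pHeps, Ccnd3 was higher by 1.11 (SE 0.17, adjusted p = 2.27e-05), which was 0.97 without replicate 4. Bysl, on the opposite strand of Ccnd3, had at most 625 counts in a library, and the genes opposite Cdkn1a and Ccnd2 at most 47.

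**Figure D4:**
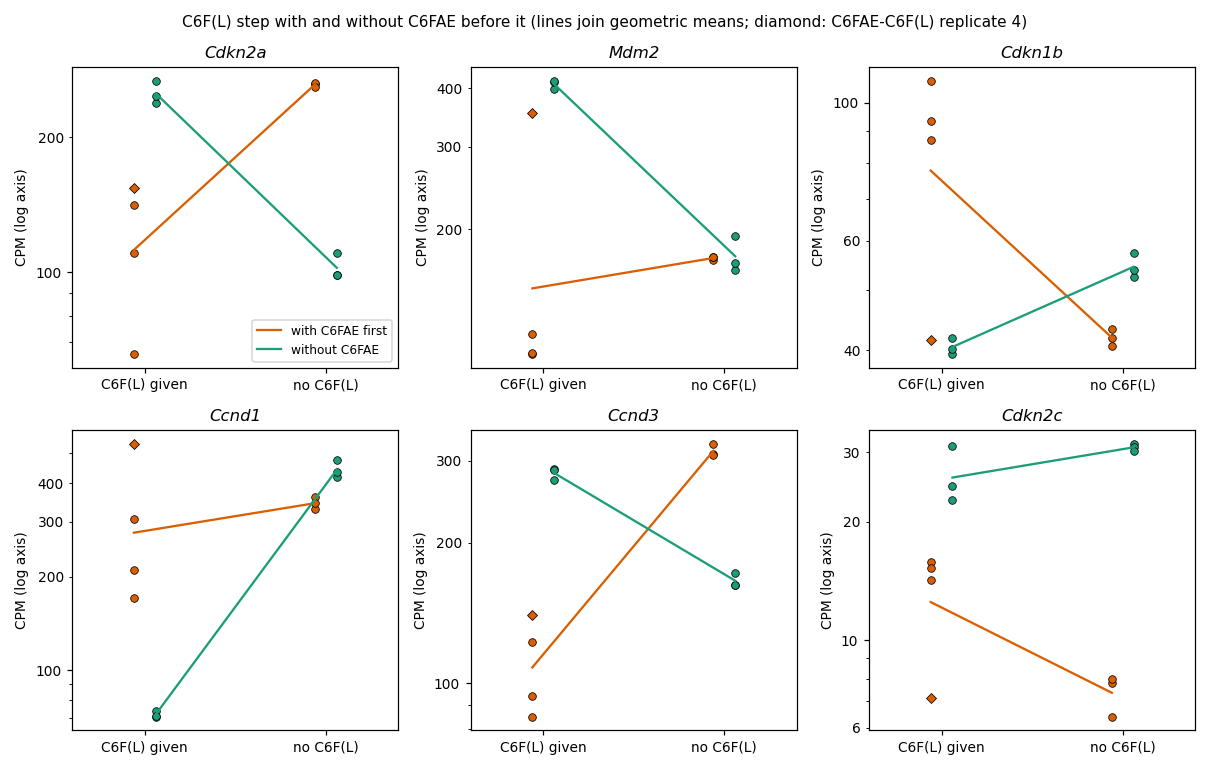
CPM (log axis) of 6 of the genes in libraries with C6F(L) (left in each panel) and without it (right), coloured by whether C6FAE came first, with lines joining geometric means and a diamond for C6FAE-C6F(L) replicate 4. For Cdkn2a, Cdkn1b, Ccnd1 and Ccnd3 the lines cross, and Ccnd1 is lowest in C6F(L) alone, at 70.8 to 73.7 CPM.

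The makeup of the D cyclins, per kb of gene length, differed between groups. Ccnd1 held 64.9% of the sum in NSF-CiHeps, 58.0% in C6F5UE-C6F(L)V, 46.5% in C6FAE-C6F(L), 43.1% in C6FAE, 15.3% in C6F(L), 70.3% in pHeps and 45.3% in MEF. Ccnd2 held 43.5% in C6FAE-C6F(L), 35.8% in C6FAE, 52.3% in C6F(L), 5.75% in pHeps and 45.6% in MEF. Ccnd3 held 32.3% in C6F(L), 24.0% in pHeps, 21.2% in C6FAE and 9.13% in MEF. The summed level was 23.6 CPM per kb in pHeps, 52.4 CPM per kb in C6F5UE-C6F(L)V and 207.5 CPM per kb in MEF, with the other groups between 99.6 and 170.0 CPM per kb. Per kb, Ccnd1 thus had the largest share in NSF-CiHeps, C6F5UE-C6F(L)V, C6FAE and pHeps, and Ccnd2 had it in C6F(L). The shares of both overlapped between libraries in C6FAE-C6F(L) and MEF. This order depends on gene length. By counts without length, Ccnd2 led in every C6FAE, C6FAE-C6F(L) and MEF library, and the other groups kept their leader. In C6FAE it then held 45.5% to 47.3%, against 26.45% to 28.8% for Ccnd1.

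**Figure D5:**
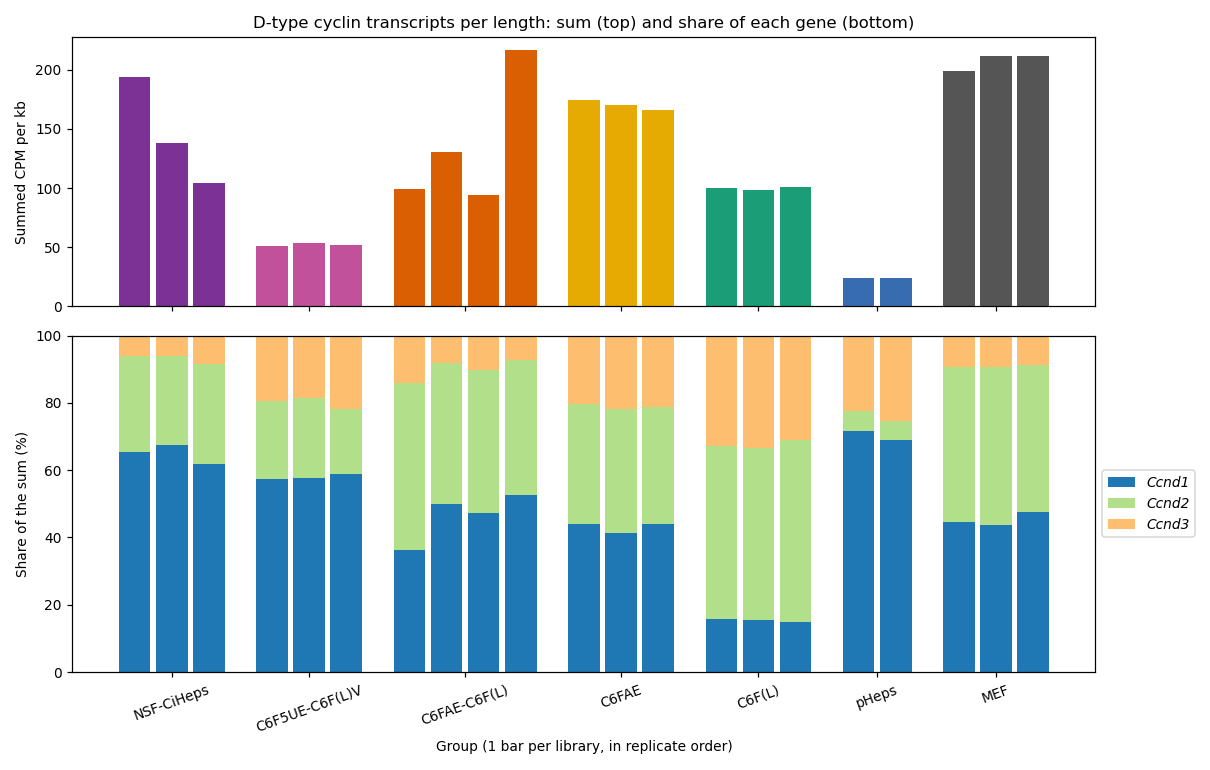
D cyclin genes in CPM per kb of gene length, with a bar for each library in the 7 groups. The upper panel gives the sum of the 3 genes, 23.6 CPM per kb on average in pHeps and 207.5 in MEF, and the lower panel each gene's share of it in percent, in which Ccnd1 has the smallest share in C6F(L).

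Of 12 genes known to induce D cyclins or to report the pathways that do, 5 rose and 3 fell in C6FAE relative to MEF, where 15.6% of all genes were called higher and 14.7% lower, and the median was 0.77 against 0.02 over all genes. Tcf7 (7.36), Lef1 (7.19) and Axin2 (5.47), all Wnt target genes, were higher and the growth factor response gene Egr1 (-3.08) was lower. In C6F(L), 6 rose and 2 fell (10.6% and 12.4% of all genes), led by Lef1 (3.80), Axin2 (2.93) and the ERK-responsive genes Etv4 (-2.58) and Etv5 (-2.23). Ccnd1 had a log2 change of -0.36 in C6FAE (adjusted p = 0.364) and of -2.61 in C6F(L). After both steps, 3 were higher and 6 lower than in C6FAE (16.1% and 17.6% of all genes), or 2 and 7 without replicate 4, led by Tcf7 (-5.85), Lef1 (-4.58), Axin2 (-3.17) and Etv5 (-2.82). In C6F5UE-C6F(L)V, 3 of 11 tested were higher and 2 lower than in pHeps (18.4% and 14.7% of all genes), led by the immediate early genes Fos (4.53), Egr1 (3.34) and Junb (2.08) and by Tcf7 (-1.89).

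The genes that D cyclins act through were compared in the same way. Of 16 genes of the cyclin, CDK and RB core, 4 rose in C6FAE relative to MEF (15.6% of all genes), namely the E2F family members E2f8 (2.45), E2f2 (1.52) and E2f7 (1.19) and Cdc25a (1.21), a phosphatase that activates CDKs. In C6F(L) 1 of the 16 was called lower than in MEF, or 2 without C6FAE-C6F(L) replicate 4 in the fit, against 12.4% of all genes. It was the D cyclin partner Cdk6, which fell by 1.65 and was at 25.1 CPM in C6F(L), against 79.7 CPM in MEF. C6FAE-C6F(L) had 5 higher, or 6 without replicate 4, and 1 lower than C6F(L) (15.5% and 16.5% of all genes), led by E2f2 (2.57), Cdk6 (1.88), Rbl1 (1.77) and E2f7 (1.46). In C6F5UE-C6F(L)V 1 was higher and 9 were lower than in pHeps (18.4% and 14.7% of all genes), led by Ccna2 (-3.53), E2f8 (-3.52), Ccne2 (-2.32) and E2f2 (-2.29).

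Proliferation genes (20 in the list) mark cells in cycle. In C6F5UE-C6F(L)V 19 of 20 were lower than in pHeps (14.7% of all genes), led by the mitotic genes Ccnb1 (-4.23), Aurka (-3.90), Plk1 (-3.71) and Bub1 (-3.64), and the median change was -2.73 against 0.01 over all genes. In pHeps 14 were higher than in MEF (24.4% of all genes), led by Birc5 (2.92), Cdk1 (2.67), Aurka (2.31) and Ccnb1 (2.26). In the same libraries Ccnd2 was at 12.8 ± 0.121 CPM in pHeps (SD, n = 2), against 891 ± 42.7 CPM in MEF (SD, n = 3). NSF-CiHeps had 16 higher and 1 lower than C6F5UE-C6F(L)V (12.3% and 16.2% of all genes), led by Mki67 (3.62), Top2a (2.92), Plk1 (2.67) and Cdc20 (2.62), beside the higher Ccnd1 and Ccnd2 given above. C6F5UE-C6F(L)V had 13 lower than C6FAE-C6F(L), or 14 without replicate 4 (22.8% of all genes), led by Mki67 (-3.85) and Top2a (-3.08). In C6FAE 3 of 20 rose relative to MEF, a share near the 15.6% of all genes, namely Aurka (1.30), Top2a (1.11) and Bub1 (1.09). In C6F(L) 1 fell, Mki67 (-1.16), against 12.4% of all genes. Of 15 senescence-associated genes, 1 rose and 8 fell in C6FAE relative to MEF (15.6% and 14.7% of all genes), with the secreted factors Ccl2 (-5.85) and Mmp13 (-3.09) lower and Mmp10 (4.46) higher. In C6F(L) 2 rose, or 3 without C6FAE-C6F(L) replicate 4 in the fit, and 4 fell (10.6% and 12.4% of all genes), with Ccl2 (-2.52) lower and Cxcl1 (2.29) higher.

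Across the 21 libraries the 10 genes did not move as a set. Of the 45 pairs among them, 5 had a Pearson r of log2 CPM above 0.8 and 17 had a negative r. The highest was 0.94, for Cdkn2b with Ccnd2, and the lowest -0.71, for Cdkn1b with Mdm2. These values describe 7 groups with shared libraries and are not 21 independent points. For Cdkn2a, Cdkn2b and Ccnd2 the pHeps libraries lay far below all others, at means of 0.278, 6.26 and 12.8 CPM. They weigh heavily in any r of these genes, here and below. Candidates for likeness were the 10406 genes that averaged 10 CPM or more. The most alike were Hoxb9 (r = 0.97) for Cdkn2a, Igf1r (0.97) for Cdkn2b, Wls (0.96) for Ccnd2, Tcaf1 (0.97) for Ccnd3 and Actn1 (0.88) for Ccnd1. For Mdm2 they were Dnajb4 (0.90), Ercc5 (0.88) and Eda2r (0.88), and for Cdkn1a Stam (0.94), Pld1 (0.93) and Ltbp1 (0.93). The closest genes were Ntan1 (0.91) for Cdkn1b, Ctns (0.89) for Cdkn2c and Sept6 (0.91) for Cdkn2d.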

How the data were processed

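Poly-A RNA of 21 libraries was measured, with groups and replicate numbers taken from the labels. The deposited tables hold raw counts per gene, which the authors made from reads aligned with HISAT2 to GRCm38 (mm10), per the submitters' processing notes. The sources used here do not give the counting tool or its strand setting. The deposited FPKM values, scaled by the authors to gene length and depth, served only to check columns: 13 of 16 followed the counts under the same label, and 3 MEF columns with those of another MEF replicate. No pair of libraries agreed within sampling noise.

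Counts were filtered (filterByExpr, minimum count 10, minimum total 15), scaled by TMM and tested with edgeR 4.0.16 in R 4.3.3 (quasi-likelihood test, Benjamini-Hochberg over all genes tested), after a test on simulated data. C6FAE-C6F(L), C6FAE, C6F(L) and MEF were fitted together, C6F5UE-C6F(L)V with pHeps, and comparisons across tables in a fit of all 21 libraries. Libraries of 9180939 to 12319883 counts limit the precision of low genes such as Cdkn2a in pHeps.

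The 10 genes and the lists (other Cip/Kip genes, the p53 axis, Ink4 and Arf regulators, D cyclin inducers, the cyclin, CDK and RB core, proliferation, senescence and cell type markers) were chosen with earlier results of these data known. From each list, at most the 4 called genes with the largest changes are named per comparison. Of these, 1 gene is not reported here, and Trp53, which was not called, is given besides. DESeq2 1.42.0, other scaling, no filter, other sample sets, a replicate block, the adjusted p alone and each library left out were tried, and the list counts without C6FAE-C6F(L) replicate 4 were added after seeing the data.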

Additional observations from a re-analysis of the deposited data

Results flagged for a closer look

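C6FAE-C6F(L) replicate 4 lay far from the other 3 libraries of its group for 2 of the 10 genes, Cdkn1a at 557 CPM, against 298 to 337 CPM, and Mdm2 at 354 CPM, against 109 to 120 CPM. Its gap to the nearest library was 0.851 of the group's range for Cdkn1a and 0.954 for Mdm2, over Dixon's critical value of 0.829 for 4 samples, which chance passes in about 1 group in 20. Cdkn1b, Cdkn2c and Cdkn2d had their lowest value of the group in the same library, at 41.5, 7.13 and 9.02 CPM, and Cdkn2a, Ccnd1, Ccnd2 and Ccnd3 their highest, at 155, 536, 816 and 140 CPM. The fibroblast marker sum was 3709 CPM there, against 312 to 875 CPM in the other 3, and its part in these values was not tested.

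The effect of C6F(L) differed between cells given C6FAE first and cells that were not, by the interaction term of edgeR's quasi-likelihood test, for Cdkn1b (1.42), Cdkn2a (-2.42), Cdkn2c (1.08), Ccnd1 (2.47) and Ccnd3 (-2.26). Without C6FAE-C6F(L) replicate 4, Cdkn1a (-1.09) and Mdm2 (-1.83) were called as well.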

How the results depend on the processing

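Of 1830 gene values recomputed under an alternative, 1746 stayed on their side of the thresholds, 55 became called and 29 lost their call, and no called value changed sign. DESeq2's size factors and DESeq2's own test changed none of 130 calls each. With the adjusted p alone, the called genes of the 10 numbered 5 in place of 2 in C6FAE against MEF, 6 in place of 3 in C6F(L) against MEF, 5 in place of 1 in C6FAE-C6F(L) against MEF and 8 in place of 5 for the interaction. They numbered 8 in place of 4 in C6F5UE-C6F(L)V and 7 in place of 4 in NSF-CiHeps against pHeps, and 8 in place of 4 in C6F5UE-C6F(L)V against MEF. They were 5 in place of 3 in C6F5UE-C6F(L)V against C6FAE-C6F(L) and 5 in place of 2 in NSF-CiHeps against C6F5UE-C6F(L)V. The remaining comparisons gained calls as well. In C6FAE-C6F(L) these were Cdkn2b and Cdkn2c against C6FAE, Cdkn1a and Cdkn2c against C6F(L), and Cdkn1b and Cdkn2c against pHeps. In pHeps against MEF it was Cdkn2d. Dropping the fold threshold can only add calls, for all genes as for these. The share of all genes called under this or the other settings was not computed. None of these counts is therefore a result about the 10 genes. Leaving out each library gave 2 to 5 called genes in C6FAE-C6F(L) against C6FAE, 2 without C6FAE-C6F(L) replicate 3 and 5 without replicate 4, in place of 4. The range was 4 to 7 for the interaction, in place of 5, and 2 to 3 in C6F(L) against MEF.

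Same-numbered libraries did not deviate together (correlations of -0.081 to 0.028), and the main fits did not pair libraries by number. With so few libraries in a group, a weak pairing could go unseen by this check. With a replicate block, the called genes numbered 2 in C6FAE, 3 in C6F(L) and 1 in C6FAE-C6F(L) against MEF. They numbered 5 in C6FAE-C6F(L) against either step and 7 for the interaction. Against pHeps they numbered 4 in each of NSF-CiHeps, C6F5UE-C6F(L)V and C6FAE-C6F(L). With the block, replicate 4 of C6FAE-C6F(L) has no partner and takes a term of its own, so it is in effect left out. Depth limits Cdkn2a in pHeps, at 6 counts in 2 libraries.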
